A study of Mus musculus with 6 samples.

Results

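The data describe 10 mouse genes whose proteins cut the 3′ end of a pre-mRNA, add the poly(A) tail or bind it: Cpsf1, Cpsf2, Cpsf3, Cpsf6, Cstf1, Cstf2, Cstf3, Papola, Pabpn1 and Pabpc1. They were chosen by symbol from the annotation of the array, which names 1 probe set for each of the 10 genes and no probe set that shares one of them with another gene. They are 10 of 19937 genes that have a probe set with a single symbol, among 34760 probe sets in all.

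RNA came from cultured primary granulocytes of C57BL/6J mice and was hybridised to 6 Affymetrix Mouse Gene 1.0 ST arrays, 3 labelled caffeine+ and 3 labelled caffeine-. Per the labels' protocols, caffeine at 15 mM was first given to all cultures for 4 hours and then removed by 2 washes, so that both groups had met it. The caffeine-plus cells then stayed for 4 hours in 2 µg/ml actinomycin D, which blocks transcription, to which caffeine was added again. The caffeine-minus cells had actinomycin D alone for the same time, although their label calls them not treated with caffeine. Caffeine inhibits the kinase SMG1 of nonsense-mediated decay (NMD), the pathway that degrades mRNAs with premature stop codons, and the series asks which transcripts build up when NMD is blocked. The sources used here do not say how the granulocytes were isolated or whether replicates came from separate animals or cultures, and the p-values therefore cover only the spread among these 6 arrays, some of which may be technical.

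An mRNA receives its poly(A) tail in the nucleus after the pre-mRNA is cut downstream of the AAUAAA signal. The cleavage and polyadenylation specificity factor (CPSF) recognises the signal and carries the endonuclease, the cleavage stimulation factor (CstF) binds the GU-rich element downstream of the cut, and cleavage factor I, which contains the Cpsf6 protein, binds UGUA elements upstream of it. Poly(A) polymerase then extends the tail, PABPN1 coats it in the nucleus and PABPC1 takes over in the cytoplasm. PABPC1 near a stop codon favours normal termination of translation and opposes NMD.

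Values below are the deposited log2 values of a probe set, each difference subtracts the caffeine-minus mean from the caffeine-plus mean of these values and is given ± its standard error (3 arrays in each group), and "rose" or "fell" means a limma adjusted p under 0.05 over all 19937 genes (Benjamini-Hochberg, two-sided). Array medians lay between 6.49 and 6.60, and the correlation across probe sets was 0.986 to 0.992 (Pearson's r) for arrays of one group and 0.959 to 0.965 for arrays of different groups. The granulocyte label was set against 16 marker genes. The brightest, the myeloperoxidase gene Mpo, had a log2 level of 12.59 ± 0.02 (SD, n = 3) with caffeine and 12.97 ± 0.01 (SD, n = 3) without. All 16 markers fell with caffeine (median difference -0.62), and their summed linear level (log2 values turned back and added up) ran from 18985 to 19560 against 28040 to 29649. Of the marker lists of other cells, 6 of 11 monocyte and macrophage genes fell and 1 rose (summed level 5261 to 5498 against 6539 to 6911). Of 10 eosinophil, basophil and mast cell genes 5 fell and 2 rose (6026 to 6064 against 8739 to 9615). Of 8 B cell genes 1 fell (476 to 545 against 715 to 733), of 10 T and NK cell genes 1 fell (856 to 926 against 987 to 1054), and of 6 megakaryocyte genes 2 fell (711 to 733 against 852 to 921). Among 8 erythroid genes 3 fell and 1 rose, with a summed level of 1537 to 1573 against 1279 to 1499. As background for these counts, 21.7% of all genes fell and 16.2% rose. Among genes above the median level 33.0% fell and 29.5% rose. Detection calls were not used here, so no marker can be called absent, and in bulk RNA fewer cells of a type and less RNA per cell cannot be told apart. The part of these shifts in the results below was not tested.

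With caffeine present during the transcription block, the 10 genes split evenly. Cstf1, Papola and Cpsf6 rose, Cpsf3, Cstf2 and Pabpc1 fell, and Cpsf1, Cpsf2, Cstf3 and Pabpn1 did not pass the test. The differences ran from -0.69 for Cpsf3, the gene of the cleaving enzyme, to 0.74 for Cstf1, with a median of 0.03 against -0.04 over all genes. Over all genes 37.9% passed the test, 16.2% higher and 21.7% lower. All 10 genes lie above the median level of the array's genes, and among genes above it 29.5% rose and 33.0% fell, so 3 of 10 in each direction is close to the background of bright genes. The arrays of the 2 groups did not overlap for the 3 genes that rose and the 3 that fell, and overlapped for the other 4. Over all genes the groups did not overlap in 45.9%, with 19.5% higher and 26.3% lower.

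**Figure D1:**
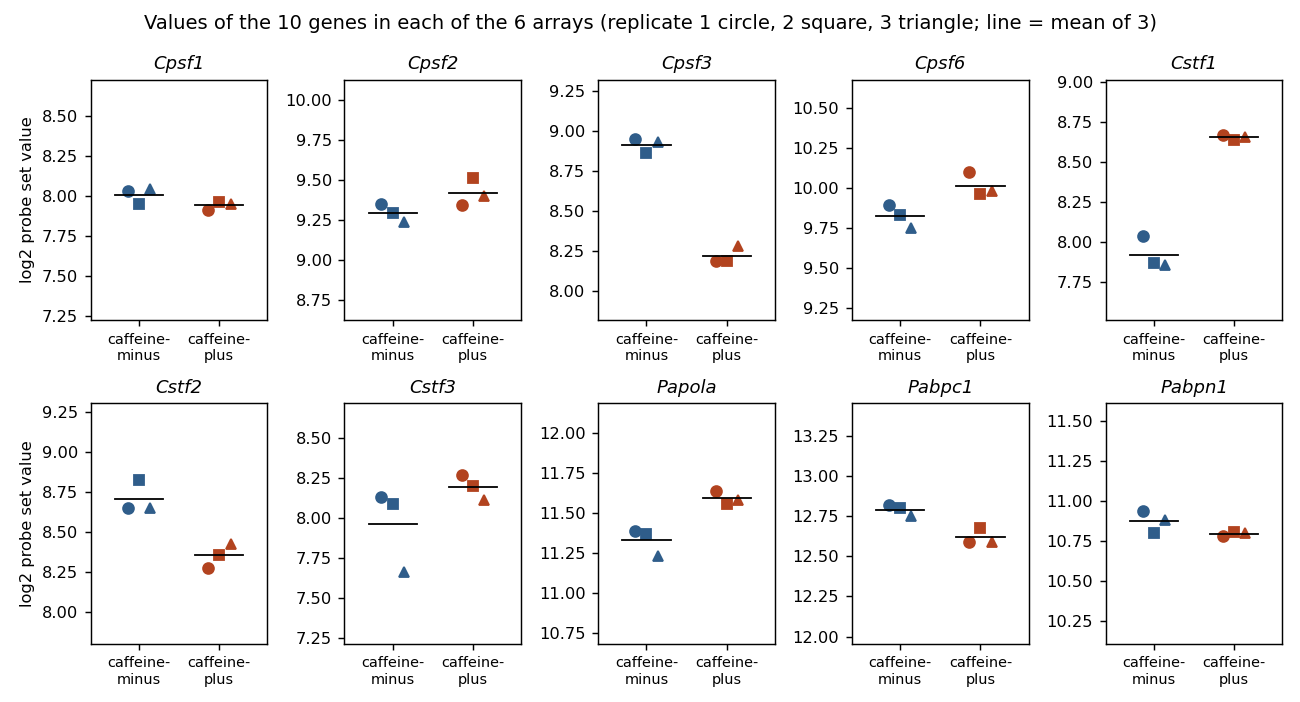
Log2 probe set value (y axis, a span of 1.5 in each panel) of the 10 genes in the 3 caffeine-minus arrays (blue) and the 3 caffeine-plus arrays (red), with the symbol giving the replicate number and the line the mean of 3. The groups stand farthest apart for Cpsf3, from 8.19 to 8.28 with caffeine and from 8.86 to 8.95 without, and for Cstf1, from 8.64 to 8.67 with caffeine and from 7.86 to 8.04 without.

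Of the CPSF subunits, Cpsf3 fell, and Cpsf1 and Cpsf2 did not pass the test. Cpsf3 encodes the endonuclease that makes the cut. Its value was 8.19, 8.19 and 8.28 in the caffeine-plus arrays and 8.95, 8.86 and 8.93 in the caffeine-minus arrays. The highest caffeine-plus array thus lay 0.58 below the lowest caffeine-minus array. Cpsf3 was 1.62-fold lower (log2 difference -0.69 ± 0.07, limma adjusted p = 1.3e-06), the largest fall of the 10. Cpsf1 encodes the largest CPSF subunit, which holds the signal-recognising part together. It stood at 7.91, 7.96 and 7.95 with caffeine and at 8.03, 7.95 and 8.04 without. These arrays overlapped, and the difference was -0.06 ± 0.08 (limma adjusted p = 0.61, 95% interval -0.23 to 0.10). Cpsf2 encodes a catalytically inactive relative of the endonuclease that pairs with it. It had 9.34, 9.51 and 9.40 with caffeine and 9.35, 9.29 and 9.24 without, and differed by 0.12 ± 0.07 (limma adjusted p = 0.22, 95% interval -0.03 to 0.27). Without caffeine-plus array 2 its difference was 0.07, and after quantile normalization 0.0056.

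Changes of subunits of one complex were also compared within each array, by subtracting the log2 value of one from that of another. Levels of different probe sets cannot be compared this way, but a shift between the groups shows that the 2 probe set values changed unequally. Differences of dim probe sets are understated, so the RNAs need not have changed unequally. Cpsf2 minus Cpsf3 was higher with caffeine by 0.81, with arrays from 1.12 to 1.32 against 0.31 to 0.43. Cpsf1 minus Cpsf3 was higher by 0.63, from -0.33 to -0.23 against -0.92 to -0.89. In both the groups did not overlap, and the shift was larger than the spread between arrays. Both pairs hold Cpsf3, whose arrays did not overlap by themselves, so these shifts are not separate from its fall. Cpsf1 minus Cpsf2 was lower by 0.18 (-1.55 to -1.42 against -1.35 to -1.20), although neither gene passed the test by itself. In an exact two-sided permutation test over arrays each of the 7 subunit pairs compared, the CstF pairs and the pair of poly(A)-binding genes included, gave p = 0.1, which is the smallest that 3 against 3 arrays allow (0.1 after Benjamini-Hochberg adjustment over the 7).

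Cpsf6 encodes the larger subunit of cleavage factor I and is an RS-domain protein that influences which poly(A) site is used. Its value was 10.10, 9.96 and 9.98 with caffeine and 9.89, 9.83 and 9.75 without. The groups were separated by only 0.08. It was 1.14-fold higher (difference 0.19 ± 0.07, limma adjusted p = 0.031). The call was lost without caffeine-plus array 1 (limma adjusted p = 0.19), 2 (0.052) or 3 (0.056), without caffeine-minus array 2 (0.061) or 3 (0.057), after quantile normalization (0.21, difference 0.10), with every probe set tested (0.067) and without the intensity trend (0.11), within a range of 0.014 to 0.21 over 16 alternatives.

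Of the CstF subunits, Cstf1 rose, Cstf2 fell and Cstf3 did not pass the test. Cstf1 encodes the WD-repeat subunit of CstF. It stood at 8.67, 8.64 and 8.66 in the caffeine-plus arrays and at 8.04, 7.87 and 7.86 in the caffeine-minus arrays, a gap of 0.60 between the nearest arrays. Cstf1 was 1.67-fold higher (difference 0.74 ± 0.08, limma adjusted p = 1.6e-06), the largest rise of the 10. Cstf2 encodes the subunit that binds the GU-rich RNA. It had 8.28, 8.36 and 8.43 with caffeine and 8.65, 8.83 and 8.65 without. All caffeine-plus arrays lay below all caffeine-minus arrays, and Cstf2 was 1.28-fold lower (log2 difference -0.35 ± 0.08, limma adjusted p = 0.0023). When every probe set was fitted, it no longer passed once caffeine-plus array 1 was left out (limma adjusted p = 0.061).

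Cstf3 encodes the scaffold that joins the other subunits of CstF, and a shortened transcript that ends at a poly(A) site inside an intron of this gene is a known form of feedback. Its value was 8.27, 8.20 and 8.11 with caffeine and 8.13, 8.09 and 7.66 without. Caffeine-minus array 3 was the low one, and the other 2 lay on either side of the lowest caffeine-plus array. The difference of 0.23 ± 0.11 did not pass (limma adjusted p = 0.12, 95% interval -0.0047 to 0.47). It passed under 2 of 16 alternatives (limma adjusted p 0.042 to 0.51 over all of them), without caffeine-minus array 1 (0.048, difference 0.32) and with the replicate number as a block (0.042). In the fit of every probe set it passed under neither (0.16 and 0.14). Without caffeine-minus array 3 the difference was 0.08. Within arrays, Cstf1 minus Cstf2 was higher with caffeine by 1.09 (0.23 to 0.39 against -0.97 to -0.61), the widest shift among the 7 pairs. Cstf1 minus Cstf3 was higher by 0.50 (0.40 to 0.56 against -0.22 to 0.20), and Cstf2 minus Cstf3 was lower by 0.59 (0.01 to 0.33 against 0.52 to 1.00).

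**Figure D2:**
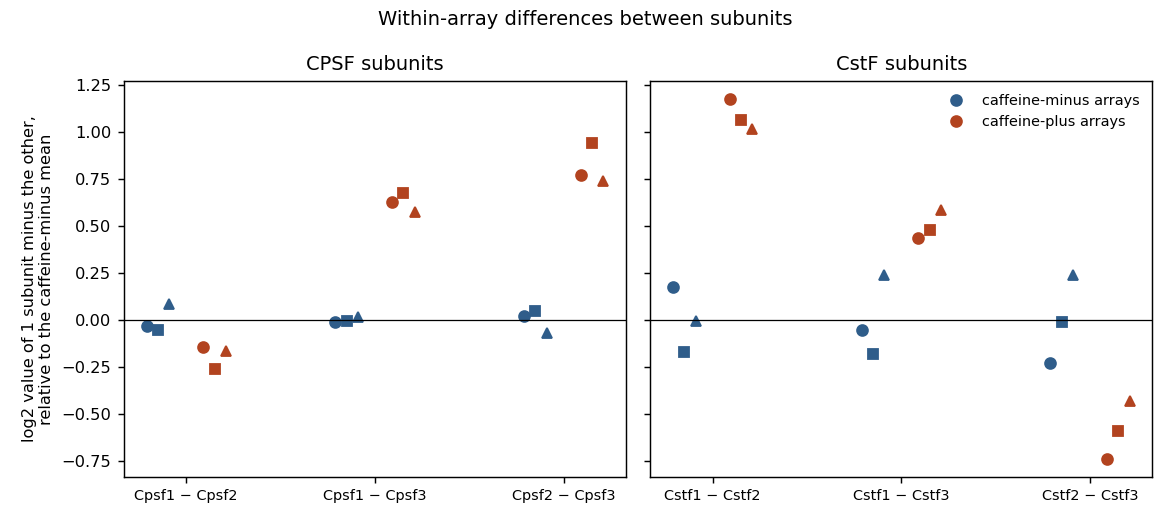
Within-array difference between the log2 values of 2 subunits of CPSF (left) or CstF (right), drawn relative to the mean of the caffeine-minus arrays, with caffeine-minus arrays in blue, caffeine-plus arrays in red and the symbol giving the replicate number. Cstf1 against Cstf2 shifted most, by 1.09, and in none of the 6 pairs drawn did the groups overlap. The pairs of a complex share genes, so they are not independent. Pairs of other genes were not compared, so this count has no background of its own. For single genes, the groups did not overlap in 45.9% of all genes.

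Papola, the gene of the main nuclear poly(A) polymerase, had 11.64, 11.56 and 11.58 in the caffeine-plus arrays and 11.39, 11.37 and 11.23 in the caffeine-minus arrays. The groups did not overlap. It was 1.20-fold higher (difference 0.26 ± 0.05, limma adjusted p = 0.00075), a call kept under all 16 alternatives (limma adjusted p 9.4e-06 to 0.027).

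The 2 poly(A)-binding genes differed little. Pabpn1 encodes the nuclear protein that stimulates poly(A) polymerase and limits tail length, and it is known to restrain its own expression by retention of its last intron. It stood at 10.78, 10.81 and 10.80 with caffeine and 10.94, 10.80 and 10.88 without. The lowest caffeine-minus array lay within the range of the caffeine-plus arrays, and the difference was -0.08 ± 0.05 (limma adjusted p = 0.33, 95% interval -0.19 to 0.04). The array measures the gene as a whole and does not separate the retained-intron form.

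Pabpc1 encodes the cytoplasmic poly(A)-binding protein, which supports translation and protects the tail. Its value was 12.59, 12.68 and 12.59 with caffeine and 12.82, 12.80 and 12.75 without, with a gap of 0.07 between the groups. Pabpc1 was 1.12-fold lower (log2 difference -0.17 ± 0.04, limma adjusted p = 0.0029). Centring each array on its median ended the call (limma adjusted p = 0.12, difference -0.11), as did leaving out the intensity trend (0.12), and after quantile normalization the difference was -0.08 (0.038), within a range of 0.00029 to 0.12 over 16 alternatives. In the fit of every probe set it passed (limma adjusted p = 0.015) but was lost without caffeine-plus array 1 (0.065) or 3 (0.06), after quantile normalization (0.096), after centring (0.17) and without the trend (0.14). Pabpc1 minus Pabpn1 within arrays was lower with caffeine by 0.09 (1.79 to 1.87 against 1.88 to 2.00).

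**Figure D3:**
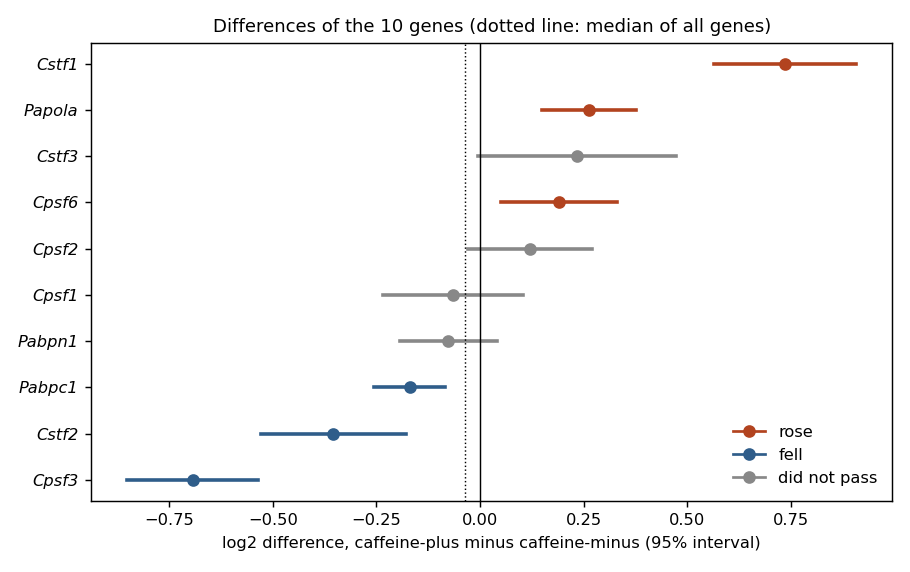
Log2 difference (x axis, caffeine-plus minus caffeine-minus) of the 10 genes with its 95% interval from the limma fit, ordered by size, in red where the gene rose, blue where it fell and grey where it did not pass, with the median of all genes (-0.04) dotted. The intervals of Cstf1 (0.57 to 0.91) and Cpsf3 (-0.85 to -0.53) lie farthest from 0.

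The 3 genes of the set that rose or fell most by rank also share their place with another gene. In the RefSeq tables of assembly GRCm38.p6 the span of Cstf1 overlaps that of Aurka, the gene of mitotic kinase Aurora A, by 242 bases head to head. Aurka rose by 0.85 ± 0.08 (limma adjusted p = 2.9e-07), as Cstf1 rose by 0.74. The span of Cpsf3 overlaps that of Itgb1bp1, an integrin-binding adaptor gene, by 20 bases head to head, and it also holds a snoRNA gene. Itgb1bp1 fell by 0.64 ± 0.07 (log2 difference -0.64, limma adjusted p = 3.5e-06), beside -0.69 for Cpsf3. Cstf2 overlaps Nox1, an NADPH oxidase gene, by 402 bases tail to tail, and Nox1 differed by -1.40 ± 0.12 (limma adjusted p = 1.8e-07) against -0.35 for Cstf2. The probe set of Nox1 was dim, with a mean of 5.43 with caffeine, below all array medians, and 6.83 without. Cpsf1 overlaps Adck5 by 5 bases, and Adck5 differed by -0.16 ± 0.11 (limma adjusted p = 0.30). In each of the 3 called pairs both genes went the same way. Over all genes 16.2% rose and 21.7% fell, and how often other overlapping genes share a direction was not counted. The positions of the probes within these genes were not used here and shared signal was not tested. These neighbours were chosen after seeing their values. No other gene's span overlaps that of Cpsf2, Cpsf6, Cstf3, Papola, Pabpc1 or Pabpn1 in these tables.

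Profiles over the 6 arrays were compared by the root mean square distance between log2 values centred on each gene's mean, over 17108 candidate genes. Nearest to Cstf1 were Iars, an isoleucyl-tRNA synthetase gene (distance 0.02, difference 0.75 ± 0.05), the small GTPase gene Rab14 (0.03, 0.75 ± 0.06) and the mRNA export factor gene Alyref (0.03, 0.78 ± 0.07). Nearest to Cpsf3 were the mitochondrial ribosomal protein gene Mrpl55 (0.02, -0.69 ± 0.08), Cuedc2 (0.02, -0.65 ± 0.09) and the prolyl hydroxylase gene Egln2 (0.02, -0.67 ± 0.08). These 6 were selected for that likeness, so their differences match those of Cstf1 and Cpsf3 by construction. Nearest to Pabpc1 were Plac8 (distance 0.02, -0.17 ± 0.05) and the SNARE gene Vamp8 (0.02, -0.16 ± 0.05) and the adaptor gene Grb10 (0.02, -0.15 ± 0.08). They were selected in the same way, so their match is also by construction. Grb10 did not pass (limma adjusted p = 0.20). The calls of Plac8 and Vamp8 were lost after centring of the arrays (limma adjusted p = 0.16 and 0.24).

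The rest of the 3′ end pathway was read from 5 lists, 66 of whose 67 genes were measured. Of the 66, 33 rose and 8 fell, with a median difference of 0.19 against -0.04 over all genes and 0.03 over the 10 genes above. For these counts and those of each list the background is 16.2% of all genes higher and 21.7% lower, or 29.5% and 33.0% of genes above the median level, where 53 of the 66 lie. Among 17 other cleavage and polyadenylation factors 9 rose and 3 fell (median 0.20). Scaf4 and Scaf8, whose proteins bind RNA polymerase II and prevent early polyadenylation, were 2.27-fold (log2 difference 1.18 ± 0.08) and 1.95-fold higher (0.97 ± 0.08). Ssu72, a phosphatase of the polymerase tail, was 1.99-fold lower (-0.99 ± 0.09). Papolb, the testis poly(A) polymerase gene, differed by 0.03 ± 0.11, and the RNA kinase gene Clp1 by -0.0020 ± 0.0700.

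Direct partners of the 10 gene products were also compared, a choice made after seeing their values. In the CPSF module that recognises the AAUAAA signal, Cpsf4 was 1.61-fold higher (log2 difference 0.69 ± 0.09), Wdr33 1.36-fold and Fip1l1 1.31-fold, with limma adjusted p = 6.6e-06, 0.00013 and 4.5e-05. Cpsf1 of the same module did not pass (-0.06), nor did Cpsf2 of the cleaving pair (0.12). Symplekin, the scaffold between CPSF and CstF, is encoded by Sympk, whose probe sets disagreed. The one used had a mean of 9.10 with caffeine and 9.08 without, and differed by 0.02 ± 0.07 (limma adjusted p = 0.87). The other, 10504759, was almost as bright (mean 9.08 over the 6 arrays). It differed by -1.94 ± 0.15 (limma adjusted p = 7.3e-05 in the fit of every probe set). The positions of their probes were not used here. Cleavage factor I has Nudt21 as its UGUA-binding subunit, at -0.04 ± 0.08 (limma adjusted p = 0.80). Nudt21 passed as lower without caffeine-minus array 3 (-0.15, 0.019), while its dimmer probe set differed by 0.13 ± 0.05 (0.081). Cpsf7, the alternative partner to Cpsf6, was 1.15-fold higher (0.20 ± 0.07, limma adjusted p = 0.033), a call lost under 6 alternatives, among them without caffeine-plus array 1 (0.16) or 3 (0.11) and without caffeine-minus array 2 (0.12). Cstf2t, the retrogene copy of Cstf2, was 1.26-fold lower (-0.33 ± 0.09), close to the -0.35 of Cstf2. As the 2 copies are similar in sequence, signal could be split between their probe sets, which was not tested. Pcf11, a subunit of cleavage factor II, was 1.58-fold higher (0.66 ± 0.07), and Papolg, a second nuclear poly(A) polymerase gene, 1.26-fold higher (0.33 ± 0.09), a call lost with every probe set tested (limma adjusted p = 0.065), and without caffeine-minus array 3 its difference was 0.21 (0.022).

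**Figure D4:**
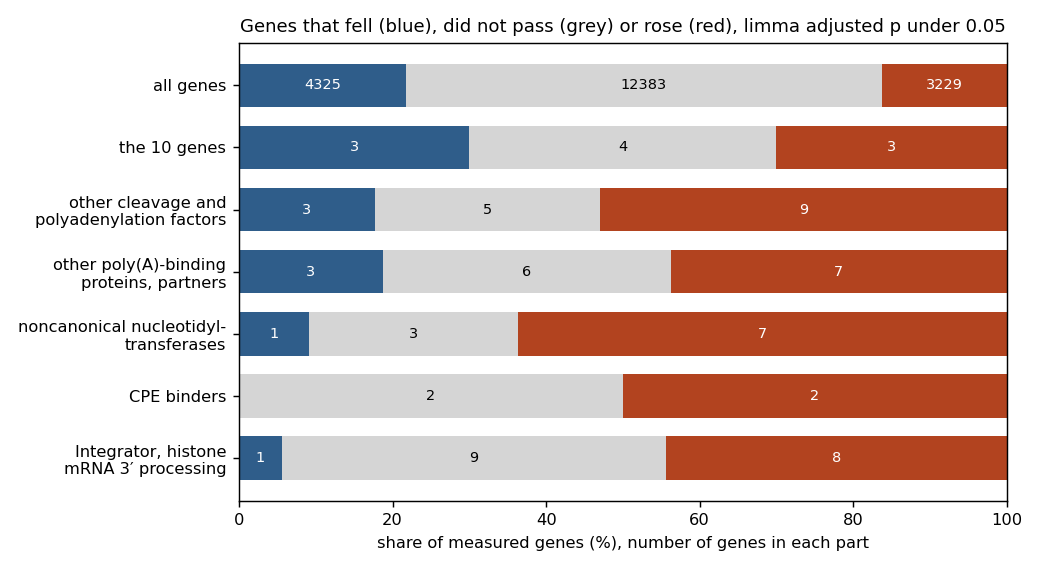
Share of measured genes (x axis, percent) that fell (blue), did not pass (grey) or rose (red) by limma adjusted p under 0.05, for all genes, the 10 genes and the 5 lists of other 3′ end genes, with the number of genes printed in each part; CPE stands for the cytoplasmic polyadenylation element. Of the 10 genes 3 rose and 3 fell, and in each of the 5 lists more genes rose than fell.

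Among 16 other poly(A)-binding proteins and partners 7 rose and 3 fell (median 0.08). Paip1, whose protein joins PABPC1 to the translation initiation machinery, was 1.96-fold higher (log2 difference 0.97 ± 0.10). Gspt1, the gene of release factor eRF3, which meets PABPC1 at the stop codon, was 1.34-fold higher (0.43 ± 0.05), and Larp1, a binder of tails and of ribosomal protein mRNAs, 1.40-fold higher (0.48 ± 0.06). A dimmer probe set of Larp1 differed by 0.80 ± 0.13 (limma adjusted p = 0.0023 in the fit of every probe set). Pabpn1l (-0.027 ± 0.109) and Pabpc6 (0.0083 ± 0.1121), relatives of the 2 binding genes above, had the largest p. Another relative, Pabpc1l, was 1.41-fold lower (log2 difference -0.50 ± 0.10, limma adjusted p = 0.00084), the largest fall of the list. Its level was 6.27 with caffeine and 6.77 without. Paip2 (-0.23 ± 0.06, limma adjusted p = 0.0041) and Paip2b (-0.31 ± 0.07, limma adjusted p = 0.0027) also fell. The proteins of Paip2 and Paip2b bind PABPC1 and hold back translation. All 3 genes were chosen after seeing their values. The Paip2 call was lost after centring of the arrays (limma adjusted p = 0.071) and without the intensity trend (0.064), and its difference was -0.14 (0.024) after quantile normalization.

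Of 11 noncanonical nucleotidyltransferases, which extend or mark RNA ends outside the main machinery, 7 rose and 1 fell (median 0.60). Tent4b, which tails nuclear RNAs for the exosome, was 2.53-fold higher (log2 difference 1.34 ± 0.06), the uridylyltransferase gene Tut7 2.00-fold (1.00 ± 0.07) and Tent5c 2.11-fold (1.08 ± 0.09). Tent5b (-0.019 ± 0.088) and Tent5d (-0.058 ± 0.121) had the largest p. The rise of Papola, 1.20-fold, was smaller than those of Tent4b, Tut7 and Tent5c. These 3 were named for the smallest p of the list, so the comparison does not cover the list. Of 4 binders of the cytoplasmic polyadenylation element, Cpeb2 was 1.76-fold (0.82 ± 0.07) and Cpeb4 1.56-fold higher (0.64 ± 0.08), while Cpeb1 differed by -0.19 ± 0.12 and Cpeb3 by -0.010 ± 0.108.

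The last list holds Integrator, the snRNA-processing complex whose catalytic subunits are relatives of the CPSF endonuclease pair, and factors of histone mRNA 3′ processing. Of its 18 genes 8 rose and 1 fell (median 0.16). Ints12 was 2.30-fold (log2 difference 1.20 ± 0.07) and Ints13 2.25-fold higher (1.17 ± 0.07), and Lsm10, of the U7 snRNP, was 2.97-fold lower (-1.57 ± 0.08). Ints11, the relative of Cpsf3, differed by -0.05 ± 0.09 and Ints1 by -0.05 ± 0.10, the largest p of the list. Cpsf3 fell by 0.69, so the 2 related endonuclease genes had differences of -0.69 and -0.05. The difference between them was not tested.

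**Figure D5:**
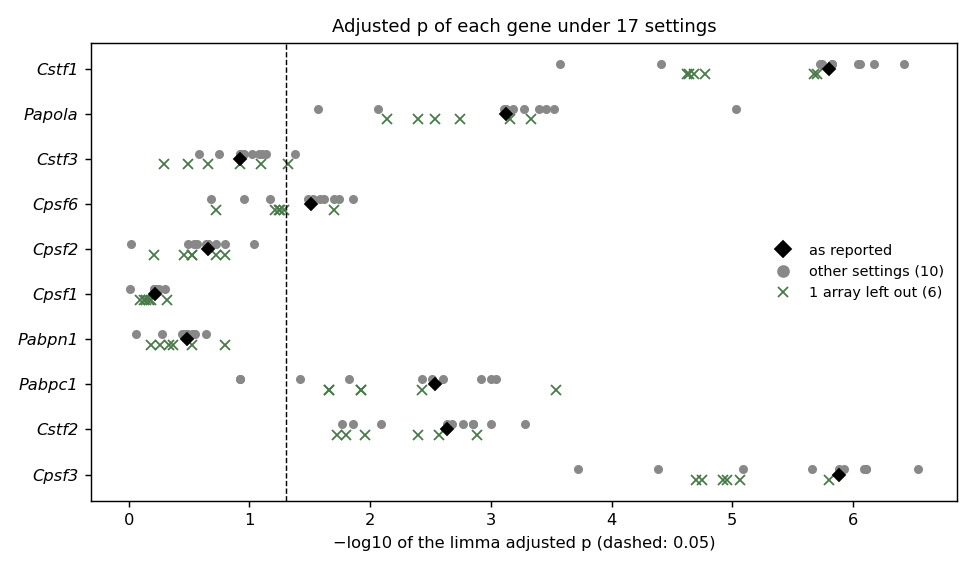
Minus log10 of the limma adjusted p (x axis, dashed line at 0.05) of each of the 10 genes as reported (black diamond), under 10 other settings (grey circles) and with each of the 6 arrays left out (green crosses). Cstf1, Cpsf3, Papola and Cstf2 stay past the line in all of them, Cpsf6 and Pabpc1 fall short in 8 and 2 of 16, and Cstf3 crosses it in 2.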

How the data were processed

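Values are the deposited log2 values of the authors, 1 per probe set and array. The log2 scale was read from their range, 1.90 to 13.98. For summarization, background correction, normalization and genome build the sources used here give no method. Per the labels' protocols, 300 ng of Trizol-extracted total RNA was labelled with the Encore Biotin Module. Such values are relative, differences of dim probe sets are understated, and the number of arrays limits the precision. No 2 arrays were identical.

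Of 34760 probe sets, 21640 have 1 symbol, 1321 several and 11799 are not listed in the annotation. Gene identifiers of 21553 matched the RefSeq table, which gave current symbols. Each gene was represented by its probe set with the highest mean. The test between groups was limma's (version 3.58.1, R 4.3.3; lmFit, eBayes with intensity trend), without a filter or block. In simulated data with 200 of 19937 genes changed, the test recovered 45% of changes of 0.5 and 95% of changes of 1, and 4.76% of its calls were false. In the real data a far larger share of genes passed (37.9%), so these rates need not hold there.

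The 10 genes, the lists and the tests were chosen with earlier results of these data known. By rule, the text names the 10 genes, up to 3 genes with the smallest p past the threshold and 2 with the largest p of each list, the brightest granulocyte marker and the 3 nearest profiles of Pabpc1 and of the largest rise and fall. Clones, small RNAs and olfactory, vomeronasal and taste receptor genes were left out of the profiles.

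The 16 alternatives were a block for the replicate number, centring arrays on their medians, quantile normalization, keeping genes above the 25th percentile or the median level, averaging a gene's probe sets, testing every probe set, eBayes without trend or robust, array weights and leaving out each array.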

Additional observations from a re-analysis of the deposited data

How the results depend on the processing

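Over 16 alternatives the count of the 10 genes that rose ran from 2 to 4 and that fell from 2 to 3 (without 1 array, 2 to 4 and 3), and the other 3′ end genes gave 31 to 34 higher and 6 to 9 lower. None of the 10 genes changed direction. Among all genes, 2880 to 3674 rose and 3496 to 4660 fell. When every probe set was fitted, 2 of the 10 rose and 3 fell, with 1 to 3 lower without 1 array. The labels do not say whether replicate numbers mark pairs, and the arrays do not settle it. Deviations of same-numbered arrays correlated at -0.03, 0.19 and 0.29. Caffeine-plus arrays 2 and 3 correlated best with their own number, but caffeine-plus array 1 did so with caffeine-minus array 2 (0.13). With the replicate number as a block 4 of the 10 rose and 3 fell, the added gene being Cstf3 (difference 0.23, limma adjusted p = 0.042; 0.14 with the block in the fit of every probe set). Other changes of sign, Sympk by the mean of its probe sets excepted, were in genes near 0 that did not pass the test. After quantile normalization these were Pabpn1l (0.028), Tent5b (0.024), Ints1 (0.011) and Sympk (-0.077). With arrays centred on their medians they were Clp1 (0.057), Pabpn1l (0.032), Tent5d (0.0010), Tent5b (0.040), Cpeb3 (0.049), Ints11 (0.012), Ints1 (0.011) and Nudt21 (0.022). Clp1 was 0.0020 with array weights, and Nudt21 0.047 by the mean of its probe sets. By that mean Sympk was -0.96 (limma adjusted p = 1.3e-07), since its other, almost equally bright probe set fell. Without 1 array the ranges were -0.018 to 0.080 (Papolb), -0.039 to 0.039 (Clp1), -0.074 to 0.052 (Pabpn1l), -0.059 to 0.098 (Pabpc6), -0.16 to 0.023 (Tent5d), -0.051 to 0.027 (Tent5b), -0.074 to 0.043 (Cpeb3), -0.30 to -0.09 (Cpeb1, same sign), -0.094 to 0.0085 (Ints11), -0.12 to 0.014 (Ints1) and -0.15 to 0.02 (Nudt21). Except where construction shows it (fewer arrays or genes), the cause was not tested.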
